A study of Mus musculus with 16 samples.

Results

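The nucleus pulposus (NP), the gel-like core of the intervertebral disc, was compared between mice that had lost Sox9 and their controls. The comparison uses the 8 of 16 arrays made from NP, 4 from Sox9 control mice (CTR) and 4 from conditional knockout mice (cKO), chosen by the tissue named in the sample labels. The other 8 arrays, from the surrounding annulus fibrosus (AF) of the same mice, are used here for the check of the tissue label and to ask whether a change differed between the compartments, and they share in the estimate of the spread behind each NP test. CTR mice are Sox9fl/fl, with loxP sites in both copies of the gene. The cKO mice are AcanCreERT2 Sox9fl/fl, in which a tamoxifen-activated Cre recombinase is expressed from the aggrecan gene, so that deletion is limited to cells that express Acan. All mice were female and between 3 and 4 months of age. The cKO mice received tamoxifen on 2 consecutive days and discs were collected on day 5 from the first dose. The labels do not say whether the CTR mice were injected, so the drug and the genotype cannot be told apart. The Cre at the aggrecan gene is named for the cKO mice only, so it cannot be told apart from the loss of Sox9 either. Lumbar and tail discs of 1 animal were pooled for each array, so 1 array is 1 mouse and n = 4 in each group.

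The NP descends from the embryonic notochord. Its large vacuolated cells live without blood vessels in a hyaluronan and aggrecan gel, depend on glycolysis and carry keratins and desmosomes that most cartilage cells lack. SOX9 is a transcription factor that, with SOX5 and SOX6, drives the cartilage matrix programme, including type II, IX and XI collagens, aggrecan, link protein and matrilins. It binds short heptamer sites built on the SOX core, often as inverted pairs in enhancers. The question addressed is which genes differ in the NP within days of losing this factor.

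Values are log2 signals, so that a difference of 1 is a doubling. The median signal of an NP array lay between 6.66 and 6.79, and the negative controls had medians of 6.37 to 6.59 on the same arrays. A CTR mean under 6.6 is therefore called background here, and 10680 of 22206 probe sets (48.1%) fell in that range. CTR arrays correlated with each other with r of 0.973 to 0.983 across probe sets, cKO arrays with 0.971 to 0.979, and arrays of different groups with 0.967 to 0.981. In a bulk tissue, fewer cells of a type and less RNA per cell cannot be told apart.

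The tissue label was checked against markers. In CTR mice, none of 28 AF and tendon markers was higher in NP than in AF and 23 were lower (limma, adjusted p under 0.05), with a median difference of -2.93. Of 25 NP and notochord markers, 10 were higher in NP and 6 lower, with a median of 0.59, while 20.1% of all probe sets differed, 9.96% higher and 10.1% lower. The keratin gene Krt19 was 2.18 higher in NP CTR than in AF CTR (adjusted p = 8.33e-05), the surface glycoprotein gene Cd24a was 1.66 higher (adjusted p = 9.03e-05), and the adhesion molecule gene Ncam1 was 1.76 higher (adjusted p = 0.000153). These genes were picked from those that were higher, and no difference is given here for the 6 markers that were lower. Some defining notochord transcription factors were at background in NP CTR, with means of 4.20 for Foxa1 and 5.51 for Foxa2. The probe set of brachyury was not matched here.

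Promoter sequence was available for 18 of the 26 named genes that changed, as 34 promoters. The SOX core ACAAT, on either strand, was present in 15 of these 34 windows of 250 bases before to 50 bases after the start (44.1%), and in 31% of all 32851 RefSeq promoters of build GRCm38.p6. The related word ACAAAG, also on either strand, was in 7 of 34 (20.6%) and in 18.7% of all. An inverted pair, ACAAT and ATTGT separated by 3 to 5 bases, was in 0 of 34 and in 0.0974% of all. Some of the 34 belong to the same gene and overlap, and a match describes letters in the window only. The bases before the start are shown for 3 changed genes, one with a cluster of matches, one with a single match and one without, all 5′ to 3′ on the strand of the gene with matches in capitals.
Cd36 (chr5:17835897-17836146, minus strand): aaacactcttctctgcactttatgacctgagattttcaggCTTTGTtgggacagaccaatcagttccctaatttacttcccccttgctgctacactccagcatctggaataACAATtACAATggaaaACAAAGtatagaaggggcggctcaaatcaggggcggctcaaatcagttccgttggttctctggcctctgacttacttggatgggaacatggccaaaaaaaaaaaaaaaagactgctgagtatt
Meltf (chr16:31878560-31878809, plus strand): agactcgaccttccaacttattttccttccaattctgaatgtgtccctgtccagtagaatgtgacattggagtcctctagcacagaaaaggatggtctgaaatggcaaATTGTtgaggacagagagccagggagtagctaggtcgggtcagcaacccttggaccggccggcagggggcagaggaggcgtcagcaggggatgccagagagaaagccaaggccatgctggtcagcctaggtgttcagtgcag
Gjc3 (chr5:137963099-137963348, minus strand): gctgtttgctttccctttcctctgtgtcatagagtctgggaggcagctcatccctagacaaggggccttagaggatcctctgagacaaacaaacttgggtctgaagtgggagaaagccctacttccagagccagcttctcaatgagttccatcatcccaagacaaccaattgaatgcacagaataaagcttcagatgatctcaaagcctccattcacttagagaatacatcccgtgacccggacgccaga
In Cd36, ACAAT stands at -139 and at -133 and ACAAAG at -123 relative to the start, with the reverse complement CTTTGT at -210. The single word of Meltf is ATTGT at -142.

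In NP of cKO mice, 27 of 22206 probe sets (0.122%) had a Benjamini-Hochberg adjusted p below 0.05 in limma, and all 27 were lower. No probe set was higher at that threshold (0%), while at an unadjusted p below 0.05 there were 1018 in all (4.58%), 395 (1.78%) higher and 623 (2.81%) lower. Of the 27, 26 carry a gene symbol. The remaining one fell from 14.69, 15.33, 15.17 and 15.03 in CTR to between 13.14 and 13.65 in cKO. In all 27 every cKO array read lower than every CTR array. Groups were apart in this way in 651 probe sets (2.93%), 246 higher (1.11%) and 405 lower (1.82%). The labels name a fold of 1.75 or more with an unadjusted p below 0.05, and by these thresholds 262 probe sets passed (1.18%), 74 higher (0.333%) and 188 lower (0.847%). In a fit of the 8 NP arrays alone 26 probe sets changed, 19 of them among the 27. The count of 27 was 10 without CTR replicate 3, 13 without cKO replicate 1, 16 without CTR replicate 1 or 4 and 17 without CTR replicate 2 or cKO replicate 2. Sox9, Gjc3, Kcnip3, Plekhb1, Meltf, Dhrs3, Tmod2, Cd36 and Myh11 kept their calls without any 1 of the 8 arrays. With 1 array left out, Cab39l and Trpm4 lost their calls only without CTR replicate 3 (adjusted p of 0.0619 and 0.0542). Each of the other 15 lost its call when any of 4 to 8 of the arrays was left out in turn, with adjusted p up to 0.231. Cab39l also lost its call with the replicate number as a block (0.0521) and after a second quantile normalization (0.0505). Without cKO replicates 2 and 4 together, Cab39l (0.293) and Trpm4 (0.136) did not pass.

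**Figure D1:**
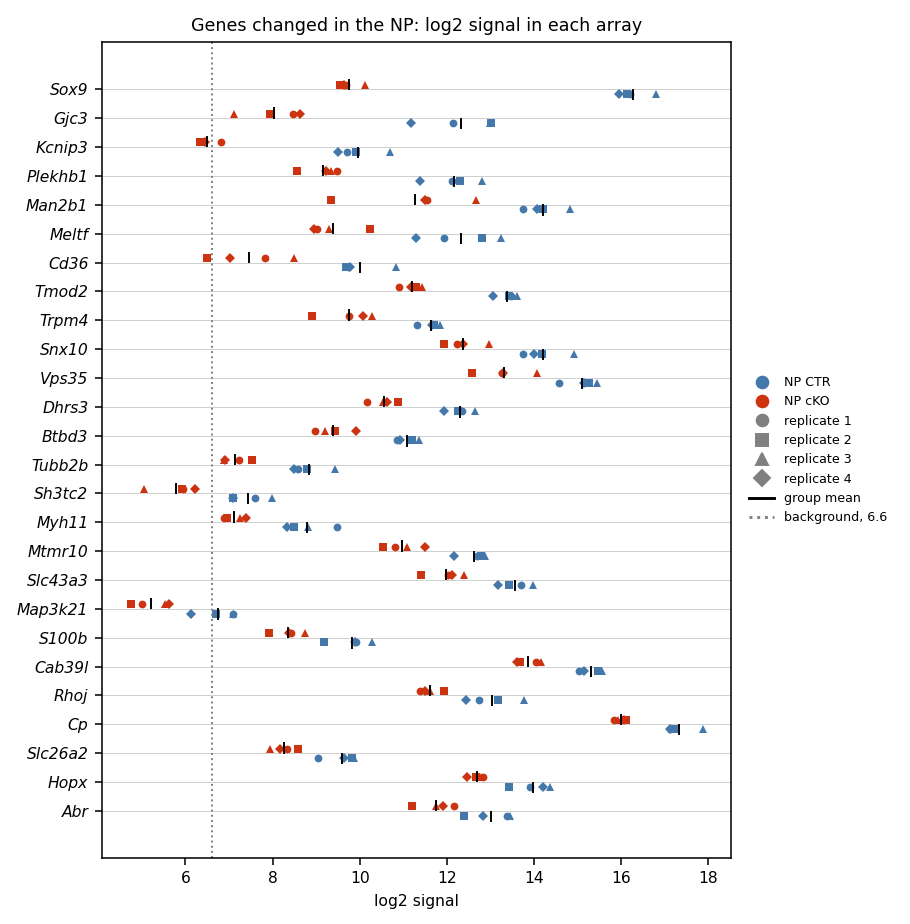
Log2 signal of the 26 named genes that changed in the NP (x axis), one gene per line, with 4 CTR arrays in blue and 4 cKO arrays in red, a marker shape per replicate and black ticks for group means. The dotted line marks background at 6.6. In each gene all 4 cKO points lie to the left of the 4 CTR points, and the cKO means of Kcnip3, Sh3tc2 and Map3k21 lie under the line.

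Of 20 SOX family genes measured, 8 had a CTR mean of at least 6.6 and 1 changed, Sox9 itself. Sox9 fell by 6.51 (SE 0.30, adjusted p = 3.11e-10), from 16.27 ± 0.36 to 9.75 ± 0.25 (SD, n = 4 each). The cKO signal remained above background, and where its probes lie in the gene is not known here. The partners did not pass the test. Sox5, at 9.60 in CTR, differed by -0.16 (SE 0.19, adjusted p = 1), and Sox6, at 12.42, by -0.38 (SE 0.22, adjusted p = 1). Sox8, a close relative of Sox9, read 8.31, 8.08, 8.82 and 8.17 in CTR and 7.58, 6.93, 8.10 and 7.60 in cKO, which overlap (difference -0.79, SE 0.33, adjusted p = 0.961).

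Genes best known from glia and gap junctions held some of the largest falls. Gjc3, a connexin of glial cells, read 12.15, 13.02, 12.98 and 11.17 in CTR and 8.46, 7.94, 7.10 and 8.62 in cKO, a fall of 19.7-fold (log2 -4.30, SE 0.43, adjusted p = 4.88e-05). Plekhb1, a pleckstrin homology protein found in retina and myelinating cells, read 12.11, 12.30, 12.81 and 11.38 in CTR and 9.48, 8.57, 9.33 and 9.22 in cKO (log2 -3.00, SE 0.33). S100b, the calcium-binding protein also made by chondrocytes, fell by 1.46 (SE 0.26) from 9.91, 9.18, 10.28 and 9.90 to 8.41, 7.91, 8.73 and 8.38. Sh3tc2, an endosomal protein of Schwann cells, fell by 1.66 (SE 0.29) from 7.59, 7.09, 7.98 and 7.10 to 5.94, 5.92, 5.05 and 6.22, so its fall is a lower bound. These were 4 of 26 measured nerve, Schwann cell and myelin genes, 13 of which were higher and 13 lower (median 0.00), and 11 had a CTR mean of at least 6.6. The mean of the list was 6.97 to 7.25 in CTR and 6.71 to 6.80 in cKO. Defining Schwann lineage genes were at background in CTR: Sox10 at 6.04, Cdh19 at 5.51 and Foxd3 at 4.97. Among 19 connexins and pannexins, 5 were above background and only Gjc3 changed. Gja1, the main connexin of disc and bone cells, was 0.58 higher (SE 0.28, adjusted p = 1).

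Ion channel genes were mostly dim. Kcnip3, a calcium sensor that binds Kv4 potassium channels, read 9.70, 9.92, 10.70 and 9.5 in CTR and 6.82, 6.33, 6.39 and 6.45 in cKO. It fell by 3.46 on the log2 scale (SE 0.34, adjusted p = 4.88e-05) to background, which makes this a lower bound. It was the only one of 44 potassium channel and KChIP genes to change, 11 of which were above background. Kcnk2, a stretch-sensitive potassium channel, differed by -0.77 (SE 0.27, adjusted p = 0.757). Of 28 TRP and Piezo channel genes, 7 were above background and Trpm4, a calcium-activated cation channel, changed. It read 11.32, 11.71, 11.85 and 11.67 in CTR and 9.76, 8.91, 10.28 and 10.07 in cKO (log2 -1.88, SE 0.29, adjusted p = 0.00875). Trpv4, the osmosensitive channel of cartilage, differed by -0.51 (SE 0.36, adjusted p = 1).

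Endosome and lysosome genes included 3 changes, in Man2b1, Vps35 and Snx10. Man2b1, the lysosomal alpha-mannosidase that trims glycoprotein sugars, read 13.75, 14.20, 14.81 and 14.07 in CTR and 11.54, 9.35, 12.67 and 11.50 in cKO, with replicate 2 lowest (log2 -2.95, SE 0.50, adjusted p = 0.022). It was 1 of 48 lysosomal genes, whose median was -0.07 (21 higher, 27 lower). The lysosomal membrane protein gene Lamp1 differed by -0.04 (SE 0.19) and the protease gene Ctsb by 0.44 (SE 0.26), both with adjusted p = 1. Vps35, the core of the retromer that returns cargo from endosomes, read 14.56, 15.25, 15.44 and 15.14 in CTR and 13.27, 12.57, 14.07 and 13.29 in cKO (log2 -1.80, SE 0.34). Snx10, a sorting nexin, fell by 1.84 (SE 0.35), each of them with an adjusted p of 0.0399. Of 51 retromer, sorting nexin and endosomal sorting genes, 34 were lower and 17 higher (median -0.08), against 11096 lower and 11110 higher among all probe sets. The array means of this list overlapped, at 9.31 to 9.69 in CTR and 9.22 to 9.44 in cKO. The retromer partners of Vps35 differed by -0.61 (Vps29, SE 0.25, adjusted p = 0.946) and -0.37 (Vps26a, SE 0.26, adjusted p = 1). Mtmr10, a myotubularin-related protein, fell by 1.65 (SE 0.31, adjusted p = 0.0461), reading 12.69, 12.78, 12.88 and 12.15 in CTR and 10.81, 10.53, 11.08 and 11.49 in cKO.

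Lipid and retinoid genes gave 2 changes. Cd36, the fatty acid receptor whose promoter is shown above, read 9.72, 9.68, 10.82 and 9.78 in CTR and 7.81, 6.49, 8.49 and 7.02 in cKO (log2 -2.55, SE 0.39, adjusted p = 0.00707). It was the only one of 40 fatty acid uptake, storage and oxidation genes to change (21 higher, 19 lower, median 0.05). Slc27a1, a fatty acid transporter, did not pass over all genes: 10.29, 11.34, 11.74 and 10.93 in CTR against 9.72, 8.75, 10.23 and 9.61 in cKO (difference -1.50, SE 0.35, adjusted p = 0.188). Fasn, the fatty acid synthase, differed by -0.93 (SE 0.27, adjusted p = 0.453). It was the only one of 29 cholesterol and fatty acid synthesis genes past the thresholds of the labels (3.45%, against 0.847% of all probe sets lower). Dhrs3, which reduces retinaldehyde and so limits retinoic acid, read 12.35, 12.24, 12.64 and 11.94 in CTR and 10.16, 10.87, 10.53 and 10.62 in cKO (log2 -1.75, SE 0.23, adjusted p = 0.00113). Rdh10, which works in the opposite direction, differed by -1.14 (SE 0.42, adjusted p = 0.845). Of 29 retinoid pathway genes, 19 were lower (median -0.10).

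Cytoskeletal genes changed in single members of their families. Tmod2, which caps the slow end of actin filaments, read 13.48, 13.42, 13.61 and 13.05 in CTR and 10.89, 11.30, 11.42 and 11.17 in cKO (log2 -2.19, SE 0.31, adjusted p = 0.00312). The paralogs Tmod1 and Tmod3 differed by 0.04 (SE 0.25) and -0.16 (SE 0.26), both with adjusted p = 1. Myh11, smooth muscle myosin heavy chain, read 9.48, 8.50, 8.81 and 8.32 in CTR and 6.89, 6.96, 7.25 and 7.38 in cKO (log2 -1.66, SE 0.26, adjusted p = 0.00875). Tubb2b, a beta-tubulin of neurons, read 8.58, 8.78, 9.43 and 8.5 in CTR and 7.23, 7.54, 6.89 and 6.91 in cKO (log2 -1.68, SE 0.32, adjusted p = 0.047). Its close paralog Tubb2a differed by -1.36 (SE 0.35, adjusted p = 0.295), and probe sets of such near copies can share signal. Among 17 tubulin genes 10 were higher and 7 lower, and Tubb5 differed by -0.04 (SE 0.29). Rhoj, a Cdc42-like GTPase, and Abr, a GTPase regulator, fell by 1.42 (SE 0.27) and 1.26 (SE 0.24), each with an adjusted p of 0.047. Btbd3, a BTB-domain protein, read 10.85, 11.19, 11.37 and 10.92 in CTR and 8.96, 9.42, 9.21 and 9.92 in cKO (log2 -1.71, SE 0.29, adjusted p = 0.022).

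Transport, iron and kinase genes made up most of the rest. Meltf, a membrane-anchored transferrin relative, read 11.93, 12.81, 13.24 and 11.30 in CTR and 9.02, 10.24, 9.30 and 8.95 in cKO (log2 -2.94, SE 0.43, adjusted p = 0.00461). Cp, the ferroxidase ceruloplasmin, fell by 1.34 (SE 0.24, adjusted p = 0.0325) from 17.11, 17.23, 17.87 and 17.11 to 15.84, 16.11, 15.93 and 16.07. They were the 2 changed members of 28 iron handling genes, whose median was -0.07. The transferrin receptor gene Tfrc differed by -0.19 (SE 0.25, adjusted p = 1). Cab39l, a scaffold of the LKB1 kinase complex, fell by 1.43 (SE 0.23, adjusted p = 0.00926) from 15.03, 15.46, 15.57 and 15.13 to 14.04, 13.68, 14.15 and 13.61. Its paralog Cab39 differed by -0.06 (SE 0.26), the kinase Stk11 by 0.18 (SE 0.30), and the LKB1 target kinase Sik3 by -0.98 (SE 0.29, adjusted p = 0.475). Slc43a3, a purine base transporter, fell by 1.58 (SE 0.28, adjusted p = 0.0277), reading 13.69, 13.43, 13.97 and 13.18 in CTR and 12.03, 11.41, 12.39 and 12.12 in cKO. Hopx, a homeodomain protein that does not bind DNA, fell by 1.29 (SE 0.23, adjusted p = 0.0332) from 13.91, 13.42, 14.37 and 14.20 to 12.83, 12.67, 12.78 and 12.46. Map3k21, a mixed-lineage kinase, fell by 1.54 (SE 0.28, adjusted p = 0.0352) from 6.76, close to background, to 5.22, under it, so its fall is a lower bound. One of its CTR arrays, replicate 4 at 6.14, was under background too.

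Cartilage matrix genes were split. No member of the list of cartilage collagens, aggrecan and link proteins passed over all genes, and 9 of 14 were lower (median -0.12). Past the thresholds of the labels and lower were 3 of 14 (21.4%), against 0.847% of all probe sets. Hapln1, the link protein, read 15.06, 15.44, 15.46 and 14.77 in CTR and 13.35, 11.98, 13.66 and 14.44 in cKO (difference -1.83, SE 0.42, adjusted p = 0.188). Acan read 19.03, 18.89, 18.96 and 19.07 in CTR and 17.62, 18.90, 17.21 and 17.66 in cKO, so cKO replicate 2 kept the level of the controls (difference -1.14, SE 0.34, adjusted p = 0.513). The Cre of the cKO mice is expressed from this gene. Col11a1, a type XI collagen chain, was 8.60, 8.07, 9.11 and 7.71 in CTR and near background in cKO at 6.90, 6.51, 6.22 and 6.76 (difference -1.77, SE 0.55, adjusted p = 0.574). In the fit of the 8 NP arrays alone Col11a1 passed, with an adjusted p of 0.0342. Type II collagen was dim in the NP: Col2a1 averaged 8.07 in CTR, a difference of -6.06 from AF CTR, and 7.0 in cKO (difference -1.07, SE 0.59, adjusted p = 1). Col9a1 (6.38), Col9a2 (6.37), Col27a1 (5.32) and Matn3 (3.87) were at background in NP CTR, so a fall of these SOX9 target genes could not be measured. Snorc, a small transmembrane chondroitin sulfate proteoglycan, differed by -1.11 (SE 0.38, adjusted p = 0.736), and Susd5, a hyaluronan-binding protein, by -0.95 (SE 0.26, adjusted p = 0.358).

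Genes that sulfate and process the matrix included 1 change. Slc26a2, the sulfate transporter on which proteoglycan sulfation depends, read 9.04, 9.83, 9.87 and 9.64 in CTR and 8.34, 8.59, 7.93 and 8.16 in cKO (log2 -1.34, SE 0.24, adjusted p = 0.0277). Papss1, which makes the sulfate donor, differed by -0.81 (SE 0.21, adjusted p = 0.295), and the chondroitin sulfotransferase gene Chst3 by -0.87 (SE 0.34, adjusted p = 0.917). These were the 3 of 43 glycosaminoglycan synthesis genes (6.98%) past the thresholds of the labels, all lower, against 0.847% of all probe sets. Of the 43, 23 were lower (median -0.02). Of 31 collagen processing and secretion genes, 3 (9.68%) passed those thresholds and were lower, against the same 0.847%. Creb3l2, a secretory pathway transcription factor, differed by -1.01 (SE 0.25, adjusted p = 0.271). Fkbp14, a collagen-folding isomerase, differed by -1.13 (SE 0.29, adjusted p = 0.305), and P4ha3, a prolyl hydroxylase subunit, by -0.94 (SE 0.32, adjusted p = 0.697). Among 38 matrix protease genes none was past those thresholds and lower, and 2 (5.26%) were higher, as were 0.333% of all probe sets. Adamts1 differed by 1.47 (SE 0.58, adjusted p = 0.911) and Htra4, at background in CTR (5.17), by 3.24 (SE 1.30, adjusted p = 0.924). Htra4 read 14.60 in cKO replicate 4 and 5.82, 5.61 and 7.62 in replicates 1 to 3, and without replicate 4 its difference was 1.18. Adamts5 (0.07, SE 0.30) and Mmp13, at background in CTR (6.10), showed no difference past a threshold.

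Signalling genes did not pass over all genes. Gas1, of the hedgehog list, had the smallest p among those described and is given with the genes that were higher. Fgfr3, a receptor that restrains cartilage growth, read 9.56, 10.32, 10.67 and 9.97 in CTR and 7.77, 8.72, 8.14 and 8.21 in cKO (difference -1.92, SE 0.41, adjusted p = 0.101). In a fit of the 8 NP arrays alone its adjusted p was 0.0159. The FGF-induced transcription factor Etv5 read 9.73, 9.30, 9.51 and 9.19 in CTR and 7.50, 7.92, 8.30 and 8.57 in cKO (difference -1.36, SE 0.30, adjusted p = 0.135). Dusp6, an ERK phosphatase induced by the pathway, differed by -1.12 (SE 0.42, adjusted p = 0.87). Of 33 FGF signalling genes, 22 were lower (median -0.08). In the Wnt list, 3 of 62 (4.84%) were past the thresholds of the labels and lower, against 0.847% of all probe sets. They were the coreceptor Lrp5 (-1.38, SE 0.33, adjusted p = 0.216), the receptor Fzd2 (-1.03, SE 0.27, adjusted p = 0.331) and the inhibitor Frzb (-1.52, SE 0.63, adjusted p = 0.957). In the list of TGF-beta and BMP signalling, 43 of 60 genes were higher (median 0.21), but the array means were 8.03, 8.62, 8.13 and 8.56 in cKO replicates 1 to 4 and 7.93 to 8.21 in CTR. The higher means came from cKO replicates 2 and 4. Bmp5 differed by -1.21 (SE 0.33, adjusted p = 0.369).

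No NP identity marker passed over all genes. Among 25 NP and notochord markers, 13 were higher and 12 lower (median 0.01), and the mean was 11.57 to 11.88 in CTR and 11.52 to 11.65 in cKO. Krt19 read 18.21, 18.02, 18.22 and 17.92 in CTR and 18.17, 18.16, 18.42 and 17.98 in cKO (difference 0.09, SE 0.32). Cd109, a surface protein that binds TGF-beta, read 15.23, 15.30, 15.24 and 14.46 in CTR and 13.83, 14.18, 14.40 and 14.26 in cKO (difference -0.89, SE 0.25, adjusted p = 0.392). The N-cadherin gene Cdh2 differed by 0.19 (SE 0.31) and Cd24a by -0.16 (SE 0.24). The carbonic anhydrase gene Car3, at 19.86 to 19.93 in all 8 arrays, was close to the highest value of the table (19.93), where a difference would be compressed. The keratin and desmosome list held 5 of 27 genes (18.5%) past the thresholds of the labels, all lower, against 0.847% of all probe sets. Krt8 read 16.33, 16.44, 16.63 and 16.42 in CTR and 16.13, 14.84, 15.80 and 15.06 in cKO (difference -0.99, SE 0.32, adjusted p = 0.684). The others were Krt20 (-1.47, SE 0.35, adjusted p = 0.203), the desmosomal cadherins Dsc2 and Dsg2 (each -0.94, adjusted p of 0.445 and 0.653) and Dsc3 (-0.84, SE 0.40, adjusted p = 1). Of all 27 members 17 were higher, and the median was 0.05. Of 33 Hox genes, 11 were above background, and the posterior gene Hoxd10 differed by -1.18 (SE 0.45, adjusted p = 0.886).

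Stress and metabolic families had no changed member among those described here. In the hypoxia response and glycolysis list, 32 of 40 genes were higher (median 0.16), while the array means overlapped at 12.57 to 13.04 in CTR and 12.44 to 13.27 in cKO. Ddit4, an inhibitor of mTOR induced by stress, read 9.52, 9.82, 10.73 and 9.0 in CTR and 12.44, 11.29, 11.43 and 9.33 in cKO (difference 1.35, SE 0.56, adjusted p = 0.961). Mitochondrial respiratory chain genes were lower in 35 of 52 (median -0.10), and their array means overlapped at 10.14 to 10.68 in CTR and 10.04 to 10.37 in cKO. Apoptosis regulators were higher in 21 and lower in 21 of 42 (median 0.00). Cdkn1a, the p53 target that halts the cell cycle, differed by 1.02 (SE 0.44, adjusted p = 1) and the death ligand gene Tnfsf10 by -0.74 (SE 0.26, adjusted p = 0.777). Of 41 endoplasmic reticulum and integrated stress response genes none was past the thresholds of the labels, and Nupr1 differed by 0.77 (SE 0.25, adjusted p = 0.695). Interferon response genes were lower in 31 of 41 (median -0.18), with means of 6.78, 6.93, 7.31 and 6.92 in CTR and 6.71, 6.49, 6.82 and 6.83 in cKO. Ifit3 differed by -1.04 (SE 0.29, adjusted p = 0.401) and Ifit3b by -0.93 (SE 0.36, adjusted p = 0.886). These near copies may share probes. Immediate early genes, which answer to stimulation within minutes, were lower in 21 of 30 (median -0.22). Their array means were 10.05 to 10.70 in cKO, inside the CTR range of 9.74 to 11.38. Egr1 read 16.40, 15.01, 17.49 and 16.74 in CTR and 15.46, 13.70, 15.17 and 16.32 in cKO.

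**Figure D2:**
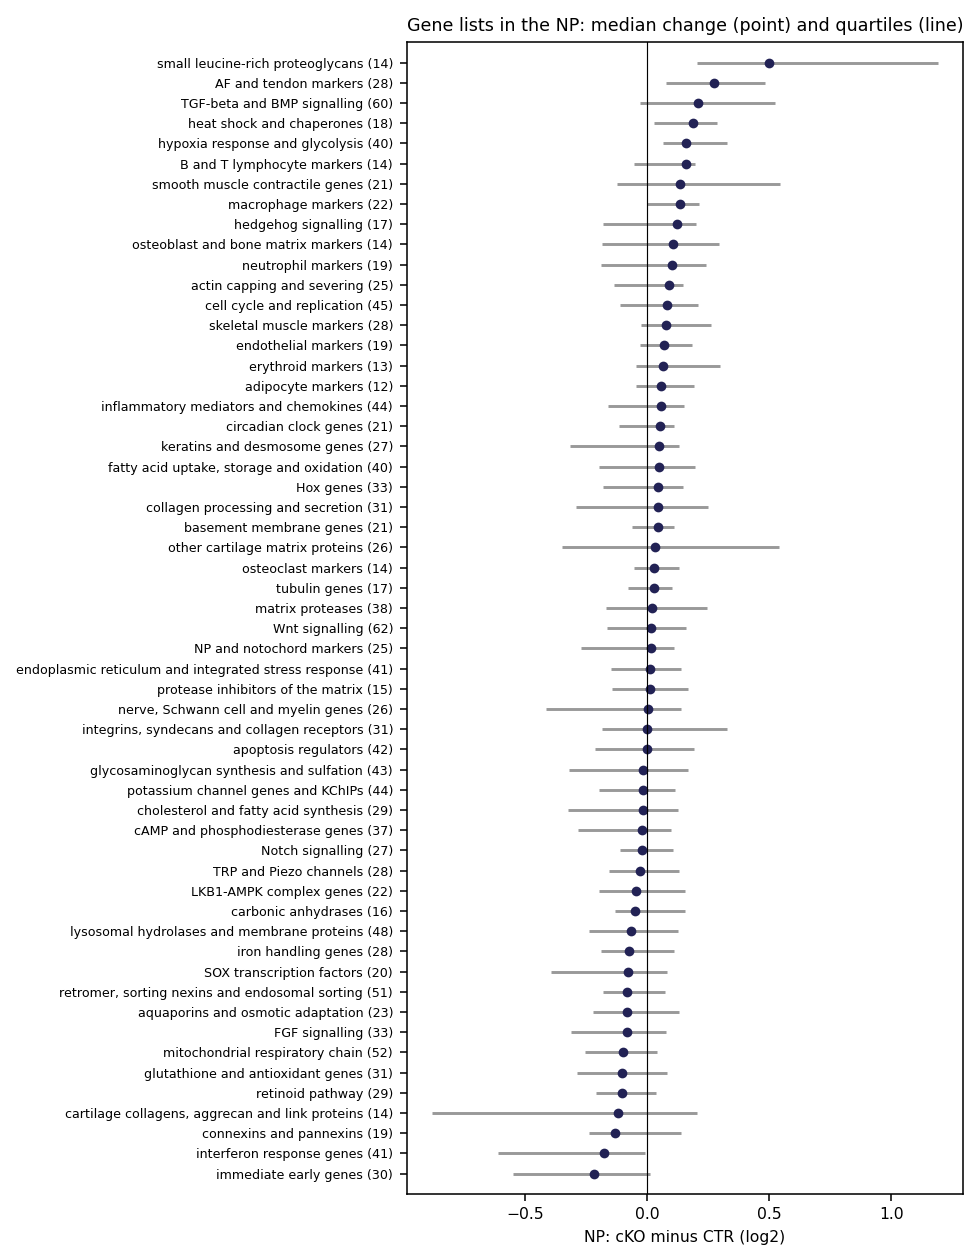
Median difference of each gene list in the NP, cKO minus CTR on the log2 scale (x axis), with the number of members measured in brackets and lines from the first to the third quartile of the members. Medians run from -0.22 for immediate early genes to 0.50 for small leucine-rich proteoglycans, and the cartilage collagens and aggrecan show the widest spread to the left.

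Genes that were higher in cKO did not pass over all genes. Both directions were uneven across the 4 cKO mice. Of the 74 past the thresholds of the labels, the highest cKO value was in replicate 2 for 38, in replicate 4 for 21, in replicate 1 for 9 and in replicate 3 for 6, and 25 did not overlap with CTR. Of the 188 lower, the lowest cKO value was in replicate 2 for 86, in replicate 1 for 49, in replicate 4 for 28 and in replicate 3 for 25, and 129 did not overlap. Both sets were chosen by p and fold on these same arrays, which favours groups that do not overlap. Over all probe sets 246 (1.11%) did not overlap and were higher, and 405 (1.82%) did not overlap and were lower. Gas1, a hedgehog coreceptor, came closest: 8.93, 9.94, 10.18 and 10.25 in CTR and 11.20, 13.47, 11.88 and 12.35 in cKO (difference 2.4, SE 0.48, adjusted p = 0.0613). It passed with array weights (adjusted p = 0.0352), after a second quantile normalization (0.0322), with 1 probe set per gene (0.0498) and without cKO replicate 1 (0.0493), and its adjusted p was up to 0.275 without another single NP array. Ogn, the small proteoglycan osteoglycin, was even across mice, at 10.69, 10.66, 11.24 and 10.28 in CTR and 12.36, 11.74, 12.15 and 11.67 in cKO (difference 1.26, SE 0.31, adjusted p = 0.245). Apoe, a lipid carrier, read 14.31, 15.00, 15.09 and 13.35 in CTR and 15.85, 16.86, 15.66 and 15.96 in cKO (difference 1.64, SE 0.42, adjusted p = 0.271). Alox12b, a lipoxygenase of skin, differed by 1.49 (SE 0.37, adjusted p = 0.245).

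Of 21 smooth muscle contractile genes, 11 were higher and 10 lower (median 0.13), and 11 were at background in CTR. Tagln and Acta2, the 2 past the thresholds of the labels and higher (9.52%, against 0.333% of all probe sets), were highest in cKO replicate 2. Tagln read 12.44, 14.92, 10.47 and 11.34 in cKO and 9.32 to 9.99 in CTR (difference 2.64, SE 0.74, adjusted p = 0.399). Acta2, smooth muscle actin, read 14.45, 16.66, 13.62 and 13.32 in cKO and 12.15 to 12.95 in CTR (difference 1.86, SE 0.61, adjusted p = 0.693). Myh11, of the same list, fell, and Cnn1, another smooth muscle gene, was at background (5.20 in CTR, 5.07 in cKO). Id2, a BMP-induced inhibitor of DNA binding, was 17.04 in cKO replicate 2 and 13.79 to 14.90 in the other cKO arrays (difference 1.67, SE 0.57, adjusted p = 0.731). Sdc1, a heparan sulfate proteoglycan, was 14.08 in replicate 2 and 9.18 to 9.94 in the others, and its difference of 1.76 was 0.61 without that array. Col18a1, a basement membrane collagen, was at background in CTR (6.53) and 7.94 in cKO (adjusted p = 0.697).

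The mean of the small leucine-rich proteoglycans was 10.07 in cKO replicate 4, 8.27, 8.96 and 8.81 in cKO replicates 1 to 3 and 7.99 to 8.42 in CTR. Of 14 small leucine-rich proteoglycans, 12 were higher (median 0.50), and 5 (35.7%) were past the thresholds of the labels and higher, as were 0.333% of all probe sets. Dcn, decorin, read 6.18, 6.86, 10.65 and 6.67 in CTR and 7.39, 7.61, 14.12 and 18.97 in cKO (difference 4.43, SE 1.74, adjusted p = 0.908), and its difference was 2.11 without replicate 4. Bgn, biglycan, was 16.06 and 14.90 in cKO replicates 2 and 4, against 12.17 and 11.70 in replicates 1 and 3 and 10.53 to 11.78 in CTR (difference 2.39, SE 0.68, adjusted p = 0.402). Angptl7, a secreted angiopoietin-like protein, was 16.24 in cKO replicate 4 and 7.34 to 8.77 in the others (difference 3.02, SE 1.31, adjusted p = 1), and without that array the difference was 0.92. Prg4, lubricin, was 15.35 in replicate 4 and 8.35, 10.42 and 10.06 in replicates 1 to 3 (difference 3.14, SE 0.99, adjusted p = 0.604), and its difference was 1.71 without replicate 4. Tgfb1 (11.09 and 11.87 in replicates 2 and 4, 9.41 and 9.37 in 1 and 3) and Igfbp7 (14.17 and 15.78 against 12.85 and 12.83) were high in both of these arrays. Vcan, Comp and Chad, matrix genes whose NP minus AF differences in CTR were -10.21, -9.70 and -12.40, read 15.68, 11.53 and 13.06 in cKO replicate 4. Comp was at background in NP CTR (6.58). The AF and tendon list as a whole had 23 of 28 members higher, and its mean was 8.14, 8.16, 8.51 and 9.34 in cKO replicates 1 to 4 and 7.84 to 8.34 in CTR. Tnmd (5.94 in CTR, 5.75 in cKO) and Scx (5.67 and 5.82), which define tendon cells, were at background in both groups. Among the 12 largest non-overlapping rises, NP minus AF differences in CTR were -7.08 for Angptl7, -4.62 for Igfbp7 and -4.44 for Tgfb1. They were -4.21 for Ogn, -2.90 for Sdc1, -1.55 for Apoe and -1.54 for Gas1. Each of these had an adjusted p under 0.05 in limma. Alox12b was 1.64 higher in NP (adjusted p = 0.00362). Tagln (1.06), Acta2 (1.27), Id2 (-0.09) and Col18a1 (-0.69) did not pass. The part of AF tissue in these values was not tested.

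**Figure D3:**
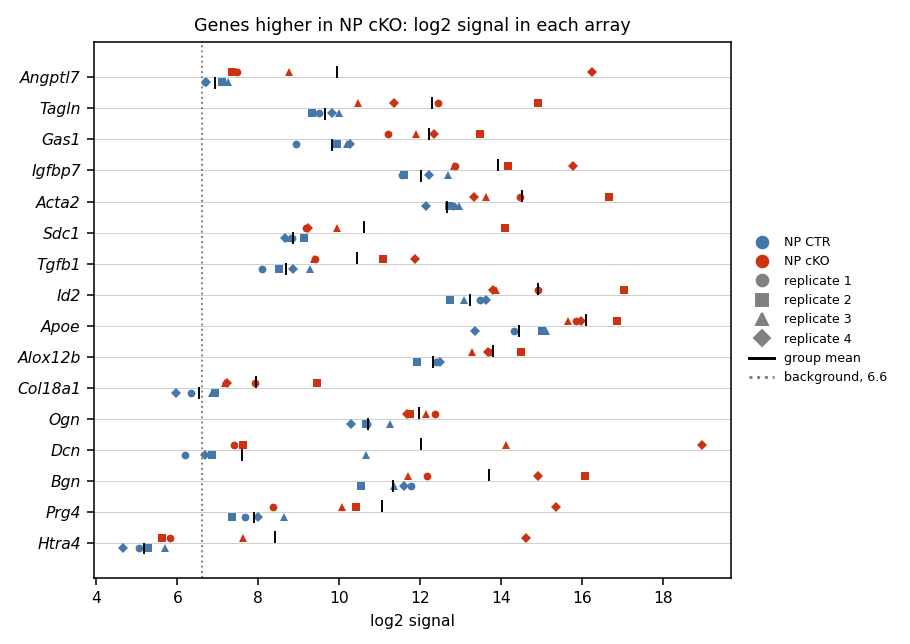
Log2 signal by array (x axis) of the 12 largest non-overlapping differences upward in the NP and of Dcn, Bgn, Prg4 and Htra4, with CTR in blue, cKO in red, one marker shape per replicate and black ticks for group means. Single cKO arrays stand far to the right, replicate 4 for Angptl7 (16.24) and Htra4 (14.60) and replicate 2 for Sdc1 (14.08) and Acta2 (16.66). Dcn is highest in cKO replicate 4 (18.97), and replicate 3 is also high for Dcn in both groups (10.65 in CTR).

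Markers of other cell types gave no changed gene outside the nerve and smooth muscle lists. Median differences were 0.10 for 19 neutrophil, 0.06 for 13 erythroid, 0.13 for 22 macrophage, 0.07 for 19 endothelial, 0.08 for 28 skeletal muscle, 0.03 for 14 osteoclast, 0.11 for 14 osteoblast, 0.06 for 12 adipocyte and 0.16 for 14 lymphocyte markers. Endothelial markers were above background in 2 of 19, with Pecam1 at 5.39 in CTR and 5.57 in cKO. Skeletal muscle markers were above background in 5 of 28. The neutrophil mean varied between mice within both groups, from 5.84 to 7.13 in CTR and from 5.53 to 7.13 in cKO, with S100a8 between 4.72 and 10.86. The part of blood or marrow cells in the genes above was not tested.

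**Figure D4:**
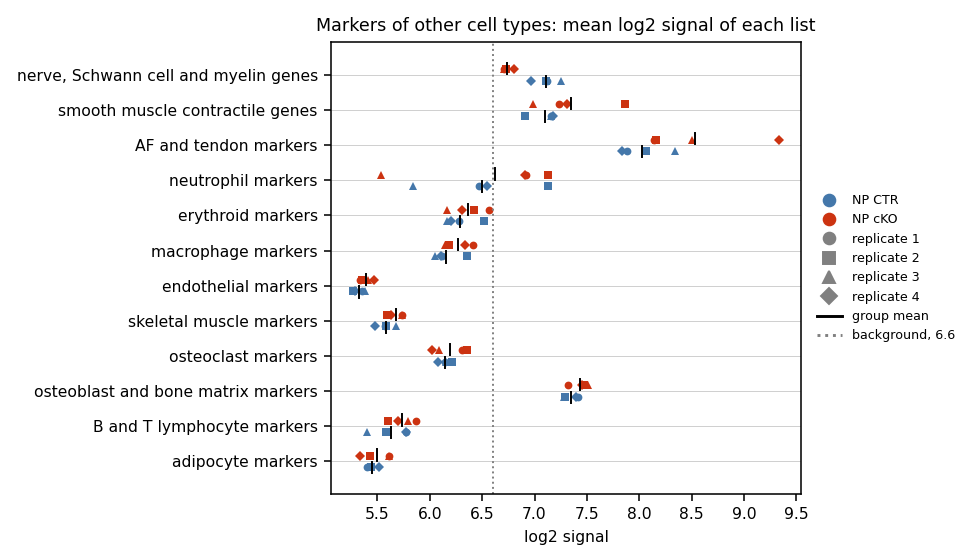
Mean log2 signal (x axis) over each list of markers of other cell types in the 8 NP arrays, with CTR in blue, cKO in red, one marker shape per replicate and black ticks for group means. Most lists lie under the background line at 6.6, and the AF and tendon list stands out in cKO replicate 4 (9.34).

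The NP changes were set beside those in AF of the same mice. Of the 27 probe sets changed in NP, 26 were also lower in AF, as were 53.6% of all probe sets. Of the 27, 7 were among the 22 changed in AF (0.0991% of all), and 20 were past the thresholds of the labels in AF and lower, as were 1.43% of all. The NP and AF tests of a probe set use the same estimate of its spread, which favours calls in both tissues. Their median change was -1.68 in NP and -0.99 in AF, and the fall was larger in NP for 23 and smaller for 4, but they were chosen on their NP values, which favours a larger one there. The difference between the changes did not pass over all genes for any probe set (interaction contrast in limma, 0%), with 1496 (6.74%) at an unadjusted p under 0.05, among them 11 of the 27. This fit took all arrays as independent, although NP and AF came from the same mice. In an alternative fit with the animal as a block, the correlation within an animal was estimated at 0.035. Sox9 itself differed by -6.51 in NP and by -4.68 in AF (difference of changes -1.83, SE 0.43, unadjusted p = 0.000435, adjusted p = 0.667). Its cKO mean was 9.75 in NP and 12.24 in AF, against CTR means of 16.27 and 16.92. Whether this unequal fall of Sox9 bears on the other genes was not tested. Cd36 fell by 2.55 in NP and differed by -0.43 in AF (difference of changes -2.12, SE 0.55, unadjusted p = 0.00103, adjusted p = 0.732). Abr fell by 1.26 in NP and differed by 0.05 in AF (difference -1.31, SE 0.34, unadjusted p = 0.00117, adjusted p = 0.732). Gjc3 went the other way, by -4.30 in NP and -6.36 in AF (difference 2.06, SE 0.61, unadjusted p = 0.00317, adjusted p = 0.732). The cartilage collagens and aggrecan had a median of -0.12 in NP and -1.27 in AF. In NP CTR 6 of the 14 were at background, where a fall could not be measured, and the difference between these medians was not tested. Col9a3 differed by 0.21 in NP and -1.58 in AF (unadjusted p of the difference = 0.00106). Respiratory chain genes had medians of -0.10 in NP and 0.39 in AF, and the difference between these was not tested either.

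**Figure D5:**
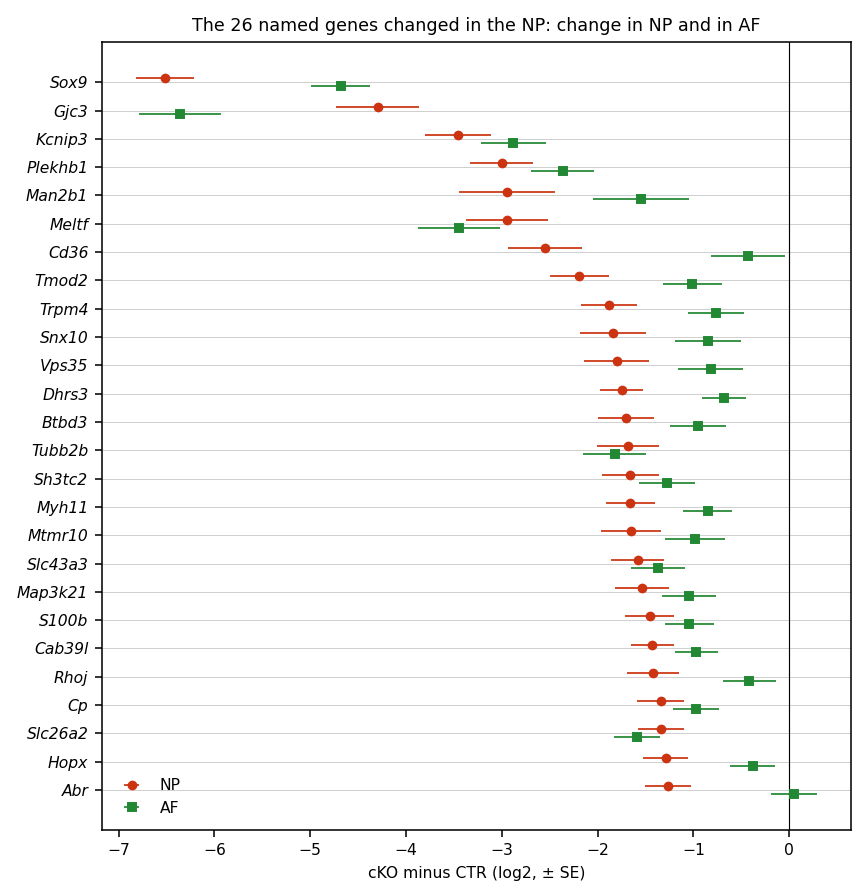
Log2 change with SE (x axis, cKO minus CTR) of the 26 named genes changed in the NP, in NP (red circles) and in AF (green squares). Most pairs lie to the left of 0 in both tissues, with Abr at 0.05 in AF and Gjc3 lower in AF (-6.36) than in NP (-4.30).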

How the data were processed

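The deposited values are log2 signals of 1-colour Affymetrix arrays, made by the authors with sst-RMA per the labels, in Transcriptome Analysis Console per the submitters' processing notes (version not given in the sources used here). RNA was purified on RNeasy columns and labelled by GeneChip WT Plus, as the labels state. Of 28846 probe sets, 6640 controls were left out and 22206 tested, of which 19572 carry 1 gene symbol and 2634 none. The values were not normalized again. All 16 arrays were fitted as 4 group means with lmFit and eBayes of limma 3.58.1 in R 4.3.3, and p-values were adjusted by Benjamini-Hochberg over all probe sets. The script was tested on simulated data. Changed means an adjusted p under 0.05. SE is that of the fit.

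Named are Sox9, all changed genes, the 12 largest non-overlapping rises past the thresholds of the labels, and, from each list, at most 4 members, those of smallest p. Further genes were named for their role after their values were seen. Where probe sets share a gene, the brightest stands for it. The members and the 56 lists (1569 of 1691 genes measured) were chosen with earlier results of these data known. Lists were described, not tested. Alternatives were other normalizations, filters, fits, blocks and arrays left out. The number of arrays limits the precision. Promoter sequences are from RefSeq.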

Additional observations from a re-analysis of the deposited data

Results flagged for a closer look

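Single arrays that stood far from the other 3 of their group were found in 16 of 262 groups examined, where chance gives about 1 in 20 (13.1 groups). Among control arrays, Cp was 17.87 in replicate 3 (others 17.11 to 17.23), Cd36 was 10.82 in replicate 3 (9.68 to 9.78), Dcn was 10.65 in replicate 3 (6.18 to 6.86) and Dusp6 was 10.97 in replicate 3 (9.30 to 9.52). Alox12b was 11.93 in control replicate 2 (12.39 to 12.48) and Cd109 was 14.46 in control replicate 4 (15.23 to 15.30). List means that stood apart in control replicate 3 were those of lysosomal genes (10.42 against 9.99 to 10.04), FGF signalling (7.18 against 6.98 to 7.0) and hypoxia and glycolysis (13.04 against 12.57 to 12.63). The smooth muscle mean was 6.90 in control replicate 2 (7.15 to 7.17).

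Among cKO arrays, Angptl7 was 16.24 in replicate 4 (7.34 to 8.77) and Sdc1 was 14.08 in replicate 2 (9.18 to 9.94). Replicate 2 was the lowest for Fkbp14 at 10.31 (11.58 to 11.67), Xaf1 at 8.89 (10.31 to 10.57) and Bmp5 at 9.20 (10.70 to 10.92). The mean of neutrophil markers was 5.53 in cKO replicate 3 (6.91 to 7.13).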

How the results depend on the processing

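The fall of Sox9 stayed between -6.64 and -6.34 under every alternative run. The count of 27 changed probe sets was 21 to 30 under the settings that kept all 8 NP arrays and the threshold, and 32 at an adjusted p under 0.1. It ranged from 10 to 19 when 1 NP array was left out. Without cKO replicates 2 and 4 together, an alternative chosen after seeing the data, 10 probe sets changed, 7 of them among the 27, and 434 in place of 262 were past the labels' thresholds (148 higher, 286 lower). With the replicate number as a block 21 changed, 16 of them shared, and Gas1 rose (adjusted p = 0.0155). Same-numbered arrays deviated together with r from -0.225 to 0.208, so the numbers were not taken as pairs, and only replicates 1 and 3 correlated best with their own number. For the difference between compartments, 0 probe sets passed; 1 passed after a second quantile normalization, and 0 to 3 when 1 of the 16 arrays was left out. Of the 26 changed genes, 6 kept their calls under every setting. Of 1779 values of named genes under alternatives, 1619 kept their side of the threshold, 150 no longer passed, 10 newly passed and 0 turned direction. Of 1008 list medians, 14 moved beyond the spread between replicates. Genes under 6.6 cannot be told from background.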
